A study of Mus musculus with 4 samples.

Results

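The transcripts of the mitochondrial genome were followed in cultured mouse oocytes. They were taken as the rows of the deposited expression table whose gene name starts with mt-, and 17 of the 26631 rows met this rule. The 17 rows comprised 13 mRNAs, 2 rRNAs and 2 tRNAs. The annotation used here (GENCODE M21 on GRCm38) holds 37 mitochondrial genes, of which 22 are tRNA genes, so the other 20 tRNA genes are not analysed here. The table holds no row at 0 in all libraries, which means that a row needed reads in at least 1 library to be listed.

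RNA was sequenced from denuded oocytes, which are oocytes stripped of their cumulus cells, taken at postnatal day 24 from C57BL/6 mice of wild type genotype. The control group received DMSO, the solvent, and the other group received HDACi 4b, which inhibits HDAC1 and HDAC3, histone deacetylases that remove acetyl groups from histones. Each group had 2 libraries, numbered replicate 1 and replicate 2. The methods give several oocytes per group as the source of the RNA, and nothing in the labels says that the replicates came from separate animals. P-values therefore measure the spread between these libraries only, which may be technical.

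Library totals were 13478189 to 14903547 reads, recovered from the values, and the unit is RPKM (reads scaled by the length of the gene and by the size of the library). The cell type label names oocytes, whereas the extraction note speaks of ovaries. All 12 oocyte markers were tested, at means of 10.4 to 3091 RPKM, including the zona pellucida gene Zp3. Of 14 granulosa and cumulus markers in the table, 9 did not reach a mean of 1 RPKM, and Serpine2 and Esr2 had the highest means, 49.3 and 22.7 RPKM. The 14 markers summed to 83.9 and 85.4 RPKM in control oocytes and 83.7 and 69.6 RPKM with HDACi 4b. None of the 7 theca and stroma markers reached a mean of 1 RPKM. The 9 markers of blood, immune and endothelial cells summed to 24.2 and 16.2 RPKM in control oocytes and 39.1 and 11.3 RPKM with HDACi 4b.

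The mitochondrial genome is a small circle that encodes subunits of 4 of the respiratory complexes together with the rRNAs and tRNAs needed to translate them. Both strands are read as long precursors, and tRNAs that lie between the other genes are cut out to release mRNAs and rRNAs. Mitochondrial mRNAs have no introns, and several gain the end of their stop codon only when the poly(A) tail is added. The oocyte holds far more mitochondria and copies of this genome than most cells, and the embryo inherits them from it. The mitochondrial polymerase is encoded in the nucleus, and mitochondrial DNA is not wrapped around histones.

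The next sequences, from the GENCODE M21 transcripts on GRCm38, show these features. The first set shows how annotated mRNA genes end, with capitals marking the last codon or what is left of it. Of the 13 genes as annotated, 10 end in a complete stop codon, as the first pair does, and 3 (mt-Cytb, mt-Co3 and mt-Nd4) end in a lone T. The last 2 bases of mt-Nd1 and of mt-Nd2 also belong to the tRNA genes mt-Ti and mt-Tw on the same strand. Where those mRNAs end was not examined. The stretches shown all lie on the plus strand, at chrM:3681-3707, chrM:6846-6872, chrM:15264-15288, chrM:9366-9390 and chrM:11520-11544.
mt-Nd1 end: acagcgggagtaccaccatacataTAG
mt-Co1 end: gaaccaacctatgtaaaagtaaaaTAA
mt-Cytb end: gacaaaatactaaaattatatccaT
mt-Co3 end: gtctccatttattgatgaggatctT
mt-Nd4 end: aaactaattacaggcctgacaataT
The genes also overlap. The end of mt-Atp8 (chrM:7919-7969, plus strand) carries the start codon of mt-Atp6 in capitals, and the annotated genes share 43 bases.
mt-Atp8 end: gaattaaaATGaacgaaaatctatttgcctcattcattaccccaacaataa
mt-Nd4l and mt-Nd4 share 7 bases, mt-Atp6 and mt-Co3 share 1, and mt-Nd5 shares 14 with mt-Nd6, which lies on the opposite strand. Reads within a stretch shared on 1 strand cannot be assigned to 1 gene. The same holds for mt-Nd5 and mt-Nd6 unless the counting used strand, which is not given in the sources used here.

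A second feature bears on some of the levels below. Nuclear chromosomes carry old insertions of mitochondrial DNA, and 7 of the 17 rows had a near-identical annotated copy (at least 99% identity over at least 200 bases) in a nuclear pseudogene. All 7 pseudogenes lie on the minus strand of chromosome 1 between positions 24611535 and 24616197. Their matches follow the order of the mitochondrial genome from position 6390 to 11042 without a shift of more than 1 base. They match the end of mt-Co1, all or nearly all of mt-Co2, mt-Atp6, mt-Co3, mt-Nd3 and mt-Nd4l, and the first part of mt-Nd4. The next pairs show how few bases separate a gene from its copy, with differing bases in capitals and positions counted from 1 at the 5′ end of the mitochondrial gene. mt-Co1 (chrM:6390-6423, plus strand) and Gm29216 (chr1:24616155-24616188, minus strand) differ at A1066T and nowhere else in 483 aligned bases.
mt-Co1: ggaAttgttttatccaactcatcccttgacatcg
Gm29216: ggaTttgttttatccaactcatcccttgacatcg
mt-Nd3 (chrM:9459-9491, plus strand) and Gm28438 (chr1:24613087-24613119, minus strand) differ at T3C, the last base of the start codon of mt-Nd3, and nowhere else in 345 aligned bases.
mt-Nd3: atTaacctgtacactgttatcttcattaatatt
Gm28438: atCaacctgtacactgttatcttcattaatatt
mt-Co2 (chrM:7013-7073, plus strand) and Gm28661 (chr1:24615505-24615565, minus strand) had no difference in 681 bases, and capitals mark the start codon.
mt-Co2: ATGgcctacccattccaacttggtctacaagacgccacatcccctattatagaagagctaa
Gm28661: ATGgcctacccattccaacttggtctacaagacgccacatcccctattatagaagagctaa
By contrast, the closest annotated copy of mt-Cytb, the most abundant row, was Gm11410 on chromosome 4 with 92.9% identity. The stretch shown (chrM:14687-14747 and chr4:80004531-80004591, both on the plus strand) differs at T564C, C567T, G570A, C591T and C603T.
mt-Cytb: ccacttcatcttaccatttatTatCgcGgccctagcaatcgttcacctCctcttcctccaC
Gm11410: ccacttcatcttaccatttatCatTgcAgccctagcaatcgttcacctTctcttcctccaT
Reads from identical stretches cannot be assigned by sequence. The treatment of such reads by the authors is not given in the sources used here. The levels of the 7 rows are therefore uncertain. The rows mt-Atp8 and mt-Tr also lie between positions 6390 and 11042, and copies of them were not compared here.

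The mitochondrial rows held 1.52% and 1.48% of the reads in the control libraries and 1.44% and 1.80% in the HDACi 4b libraries. The groups overlapped: HDACi 4b replicate 2 was the highest library and HDACi 4b replicate 1 the lowest. The means were 1.502% ± 0.0282 in control and 1.62% ± 0.255 with HDACi 4b (SD, n = 2 each), a difference smaller than the spread within the treated group. With 2 libraries against 2 the smallest p of an exact permutation test is 0.333, and no such test was run. In these bulk libraries, the number of mitochondria per oocyte and the amount of RNA per mitochondrion cannot be told apart.

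The mRNAs gave 91.4% to 92.8% of the mitochondrial reads, the rRNAs 7.16% to 8.64% and the tRNAs 0.000395% to 0.0035%, from 1 to 7 reads per library. Per length, the rRNAs summed to 0.0629, 0.0781, 0.0751 and 0.0684 of the mRNAs (the controls first, then HDACi 4b, each by replicate number). The ratio was lowest in a control library and the groups overlapped. Whether RNA was selected by poly(A) is not given in the sources used here.

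mt-Cytb, the only mitochondrial subunit of complex III, which passes electrons from ubiquinol to cytochrome c, was the most abundant row. Its level was 7156 and 7168 RPKM in control oocytes and 6463 and 8637 RPKM with HDACi 4b. As deposited, the control libraries almost coincided, and the treated libraries lay on either side of them. After scaling of the libraries, mt-Cytb was at 7856 and 6225 RPKM in control oocytes and 6270 and 9338 RPKM with HDACi 4b. On these scaled values the controls were apart, and HDACi 4b replicate 1 lay between them. As deposited, mt-Cytb made up 59.6% and 62.5% of the summed RPKM of the mitochondrial mRNAs in the controls and 58.0% and 61.3% with HDACi 4b. As deposited, a single row thus outweighed the other 12 mRNA rows together in all 4 libraries. Of those 12, 7 have a near-identical copy on chromosome 1 and uncertain levels, so the share of mt-Cytb is uncertain too. The log2 fold change of mt-Cytb, HDACi 4b over control, was 0.13 ± 0.48 (SE). The 95% interval of -1.02 to 1.28 allows a change of about 2-fold in either direction.

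**Figure D1:**
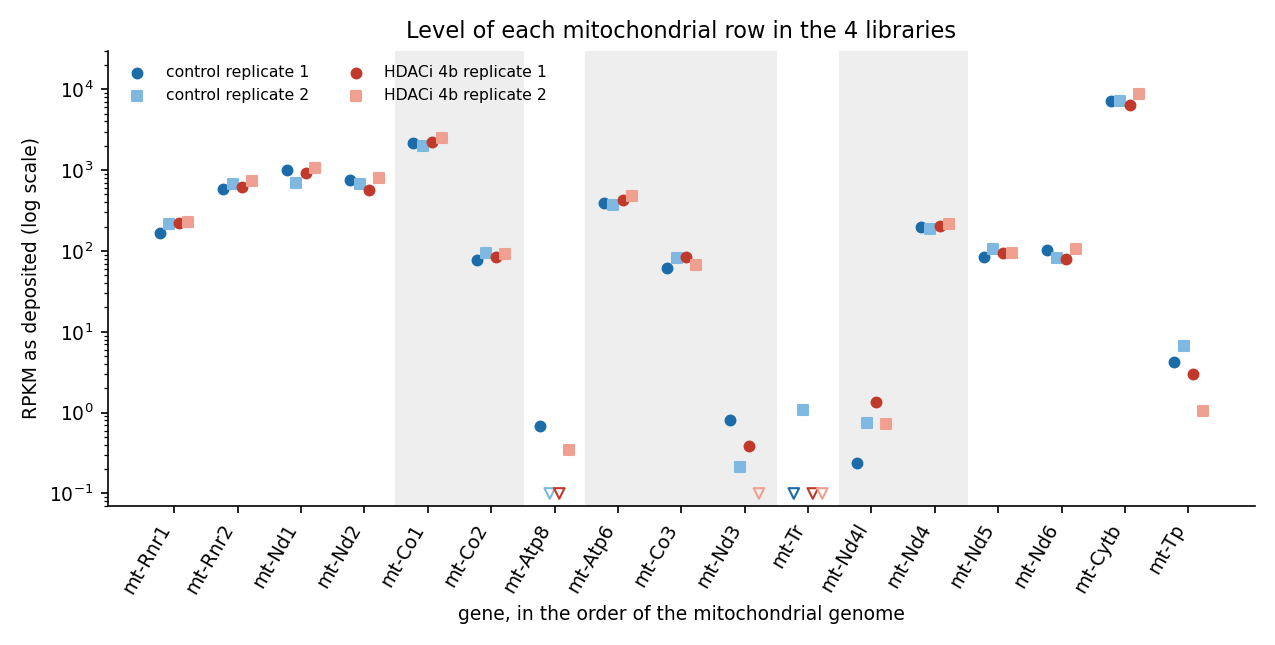
Level of each of the 17 mitochondrial rows in RPKM as deposited, on a log axis, with genes in the order of the mitochondrial genome. Each symbol is 1 library, open triangles at the foot mark a value of 0, and grey bands mark the 7 rows with a near-identical copy on chromosome 1. Libraries differ far less from one another than the genes do: mt-Cytb stands at 6463 to 8637 RPKM, while mt-Nd3 stays below 1 RPKM.

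Complex IV, cytochrome c oxidase, reduces oxygen and has 3 mitochondrial subunits. mt-Co1, which holds the oxygen-binding centre, was at 2166 and 2010 RPKM in control oocytes and 2225 and 2530 RPKM with HDACi 4b. Both treated libraries lay above both controls in the deposited values but not after scaling of the libraries. mt-Co2, the subunit that receives electrons from cytochrome c, was at 77.3 and 94.6 RPKM in control oocytes and 84.8 and 90.7 RPKM with HDACi 4b. The treated libraries fell inside the range of the controls. mt-Co3, the third core subunit, was at 61.1 and 82.3 RPKM in control oocytes and 85.2 and 67.8 RPKM with HDACi 4b, again with overlap. The rows of the same enzyme stood far apart in level. All 3 have a near-identical copy on chromosome 1, so these levels are uncertain. The copies match nearly all of mt-Co2 and mt-Co3 but only the end of mt-Co1. Together the 3 rows made up 19.2% and 19.1% of the mitochondrial mRNA level in the controls and 21.5% and 19.1% with HDACi 4b.

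Complex I oxidizes NADH and pumps protons, and its 7 mitochondrial subunits form part of the membrane arm. mt-Nd1, next to the ubiquinone site, was the highest at 1006 and 692 RPKM in control oocytes and 910 and 1069 RPKM with HDACi 4b. mt-Nd2, one of the pumping subunits, was at 757 and 670 RPKM in control oocytes and 568 and 807 RPKM with HDACi 4b. For both genes the groups overlapped. mt-Nd4, another pumping subunit, was at 195 and 185 RPKM in control oocytes and 205 and 213 RPKM with HDACi 4b, without overlap in the deposited values. mt-Nd5, the pumping subunit at the tip of the arm, was at 84.9 and 106 RPKM in control oocytes and 94.1 and 93.2 RPKM with HDACi 4b. mt-Nd6 was at 104 and 82.2 RPKM in control oocytes and 79.8 and 107 RPKM with HDACi 4b. In each of these last 2 genes the groups overlapped.

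mt-Nd6 is the 1 mRNA encoded on the minus strand and is also set apart by its bases, with 28.1% G against 5.88% to 16.1% in the other 12 mRNAs. The ratio of mt-Nd5 to mt-Nd6, which overlap on opposite strands, was 0.817 and 1.29 in the controls and 1.18 and 0.874 with HDACi 4b. The controls spanned the treated libraries.

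The rows of the remaining complex I mRNAs were close to the limit of detection. mt-Nd3 had 4 and 1 reads in control oocytes and 2 and 0 reads with HDACi 4b. mt-Nd4l had 1 and 3 reads in control oocytes and 6 and 3 reads with HDACi 4b. Both lie wholly within the stretch copied on chromosome 1. mt-Nd4l also overlaps mt-Nd4 by 7 bases, and the row of mt-Nd4 held 3430 to 4212 reads per library. A count of 0 leaves room for up to 3 reads, which is 0.612 RPKM for mt-Nd3 in HDACi 4b replicate 2. Such limits cover counting error only. No difference between the groups was detectable for mt-Nd3 or mt-Nd4l at this depth.

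Complex V, the ATP synthase, has 2 mitochondrial subunits. mt-Atp6, which forms part of the proton channel, was at 396 and 375 RPKM in control oocytes and 424 and 473 RPKM with HDACi 4b, without overlap in the deposited values. mt-Atp8, which overlaps it by 43 bases, had 2 and 0 reads in control oocytes and 0 and 1 reads with HDACi 4b. Both proteins are translated from 1 shared mRNA, yet the row of mt-Atp6 held 3439 to 4543 reads per library and that of mt-Atp8 at most 2. mt-Atp8 also lies between the copied genes, and its copy on chromosome 1 was not compared here.

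The rRNAs form the mitochondrial ribosome. mt-Rnr1, the small subunit rRNA, was at 167 and 216 RPKM in control oocytes and 219 and 231 RPKM with HDACi 4b. Both treated libraries were above both controls, by little in the case of control replicate 2. mt-Rnr2, the large subunit rRNA, was at 588 and 679 RPKM in control oocytes and 617 and 733 RPKM with HDACi 4b, with overlap. The genes lie next to each other, with a tRNA gene between them, and are read together. Per length mt-Rnr2 was 3.53 and 3.14 times mt-Rnr1 in the controls and 2.81 and 3.18 times with HDACi 4b, so the groups overlapped in this ratio too.

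Only 2 tRNAs were in the table, and they carry few reads. Their sequences are shown with the anticodon in capitals, mt-Tp for proline (chrM:15356-15422, minus strand) and mt-Tr for arginine (chrM:9808-9875, plus strand).
mt-Tp: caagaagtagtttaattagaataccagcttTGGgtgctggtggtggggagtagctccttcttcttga
mt-Tr: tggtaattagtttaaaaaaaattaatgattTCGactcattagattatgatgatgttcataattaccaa
mt-Tp had 4 and 6 reads in control oocytes and 3 and 1 reads with HDACi 4b, or 4.22, 6.64, 3.004 and 1.06 RPKM, so both treated libraries were lower. The treated libraries held 3 reads or fewer, so counting error is large. mt-Tr had 1 read in control replicate 2 and none in the other libraries, each of which allows up to 2.96 to 3.13 RPKM.

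In order of mean level over the 4 libraries, the rows with at least 50 reads in each were mt-Cytb, mt-Co1, mt-Nd1, mt-Nd2, mt-Rnr2, mt-Atp6, mt-Rnr1, mt-Nd4, mt-Nd5, mt-Nd6, mt-Co2 and mt-Co3. mt-Cytb, mt-Co1 and mt-Atp6 overlapped with no neighbour in this order. The ranges over libraries overlapped between mt-Nd1, mt-Nd2 and mt-Rnr2, between mt-Rnr1 and mt-Nd4, and among the last 4 genes. Within a library, mt-Nd1 was above mt-Nd2 and mt-Rnr2, and mt-Nd5 above mt-Co2 and mt-Co3, in all 4 libraries. The order of the other neighbours in these groups (mt-Nd2 and mt-Rnr2, mt-Rnr1 and mt-Nd4, mt-Nd5 and mt-Nd6, mt-Nd6 and mt-Co2, and mt-Co2 and mt-Co3) changed from library to library. Rows near each other on the genome could differ in deposited level: mt-Co2, at a mean of 86.8 RPKM, lies between mt-Co1 at 2233 and mt-Atp6 at 417 RPKM. Each of these rows has a near-identical copy on chromosome 1, so the levels compared are uncertain.

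The nuclear copies were listed in the table with levels of their own. Gm10925, the copy of mt-Atp6, was at 409 and 514 RPKM in control oocytes and 391 and 500 RPKM with HDACi 4b, which is 0.922 to 1.37 times mt-Atp6. Gm28661, the copy of mt-Co2, was at 67.3 and 91.3 RPKM in control oocytes and 73.0 and 72.9 RPKM with HDACi 4b, or 0.804 to 0.965 times mt-Co2. Gm28437, the copy of mt-Co3, was at 55.6 and 82.6 RPKM in control oocytes and 70.0 and 67.8 RPKM with HDACi 4b, or 0.822 to 1.004 times mt-Co3. These 3 pairs, whose members match over their full length or nearly so, stood at 0.804 to 1.37 times each other in the 4 libraries.

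The copies that match only a part of a gene were lower than that gene. Gm29216, which matches the last 483 of the 1545 bases of mt-Co1, was at 81.8 to 102 RPKM or 0.0368 to 0.0458 times mt-Co1. Gm28439, which matches 876 of the 1378 bases of mt-Nd4, was at 14.5 to 19.6 RPKM or 0.0723 to 0.106 times mt-Nd4. For the 2 rows near the limit of detection, whose copies also match nearly the whole gene, the copy had more reads than the gene. Gm28438 had 11, 8, 7 and 13 reads where mt-Nd3 had 4, 1, 2 and 0, and Gm10222 had 11, 8, 9 and 17 reads where mt-Nd4l had 1, 3, 6 and 3. Copies of lower identity in the table, which are Gm13340, Gm13341, Gm13339 and Gm4076 at 95.2% to 97.6%, had 0 to 6 reads.

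**Figure D2:**
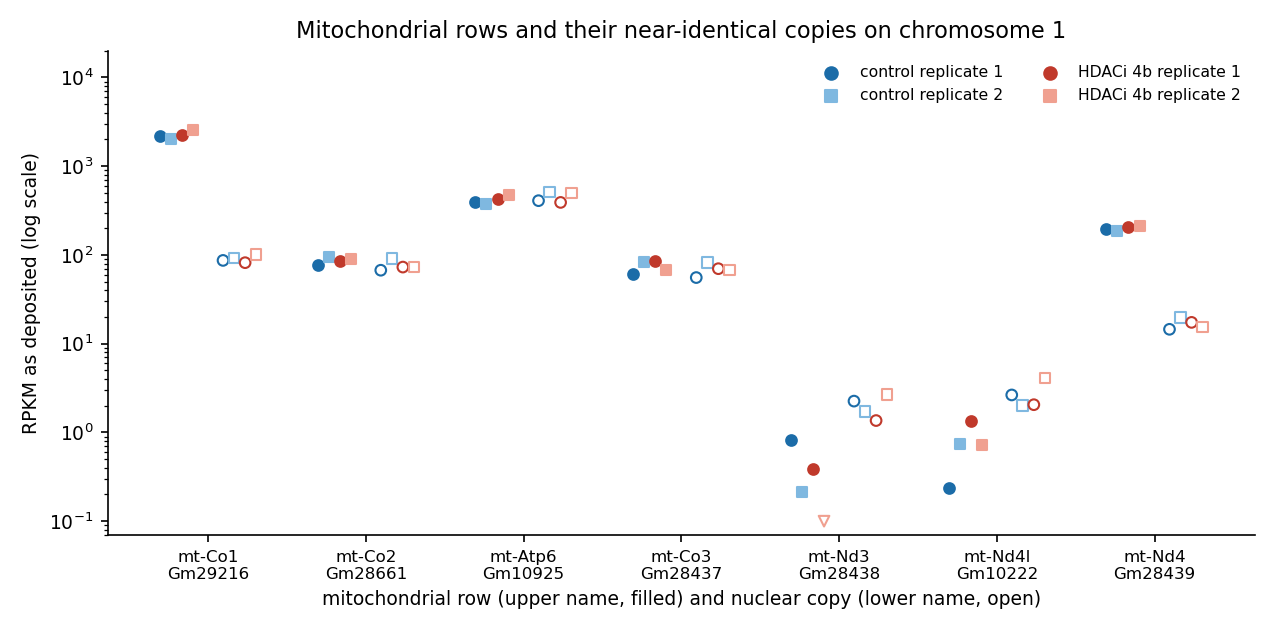
Level in RPKM as deposited, on a log axis, of the 7 mitochondrial rows (filled) and of their near-identical copies on chromosome 1 (open), with 1 symbol per library and a triangle at the foot for a value of 0. The pairs mt-Co2 with Gm28661, mt-Atp6 with Gm10925 and mt-Co3 with Gm28437 stand at similar levels. In each library mt-Co1 and mt-Nd4 lie above their copies, and mt-Nd3 and mt-Nd4l lie below theirs.

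The comparison of groups asks whether transcripts of the mitochondrial genome differ after culture with HDACi 4b. Of the 17 rows, 13 had a mean of at least 1 RPKM and were tested by limma on log2(RPKM + 0.1) after scaling of the libraries (TMM, a trimmed mean of ratios). These were 10 mRNAs, both rRNAs and mt-Tp, and mt-Atp8, mt-Nd3, mt-Nd4l and mt-Tr were not tested. None was called: 0 rose and 0 fell at a Benjamini-Hochberg adjusted p under 0.05, and each adjusted p was 1.0. The background was the same, with 0% of all 9461 tested genes called in either direction. At an unadjusted p under 0.05 by limma, 0 mitochondrial rows were higher and 1, mt-Tp, was lower, against 1.44% of all tested genes higher and 1.4% lower. limma-voom on the recovered reads gave 0 rows under this unadjusted limit, and 102 higher and 121 lower genes in all.

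The log2 fold change was positive for 11 of the 13 rows, against 49.7% of all tested genes, and the median was 0.16 against -0.00 for all genes. The rows share their libraries and their precursor RNAs and are not independent of each other. The values (± SE) were 0.31 ± 0.21 for mt-Rnr1, 0.16 ± 0.27 for mt-Rnr2, 0.31 ± 0.38 for mt-Nd1 and -0.01 ± 0.34 for mt-Nd2. mt-Nd4 was at 0.21 ± 0.24, mt-Nd5 at 0.05 ± 0.18 and mt-Nd6 at 0.07 ± 0.30. mt-Co1 was at 0.25 ± 0.36, mt-Co2 at 0.10 ± 0.19, mt-Co3 at 0.17 ± 0.18 and mt-Atp6 at 0.29 ± 0.27. Only mt-Tp, at -1.44 ± 0.41, had an interval that left out 0 (-2.43 to -0.46, unadjusted p = 0.011, adjusted p = 1.0 by limma), from 10 reads in control oocytes and 4 with HDACi 4b in all. In limma-voom, which weights by read number, mt-Tp had an unadjusted p of 0.151.

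The size of change that these data leave room for was read from the 95% intervals. The whole interval lay within 2-fold for 9 of the 13 rows, against 81.2% of all tested genes. The exceptions were mt-Cytb, mt-Nd1, mt-Co1 and mt-Tp. On scaled values both treated libraries exceeded both controls for 2 rows (mt-Rnr1 and mt-Co3), against 13.6% of all tested genes, and fell below both for 1 row (mt-Tp), against 14.4%. On the deposited values this was so for 4 rows (mt-Rnr1, mt-Co1, mt-Atp6 and mt-Nd4), against 6.6%, and for 1 row (mt-Tp), against 16.8%. Which rows were free of overlap thus depended on the scaling for all but mt-Rnr1 and mt-Tp.

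**Figure D3:**
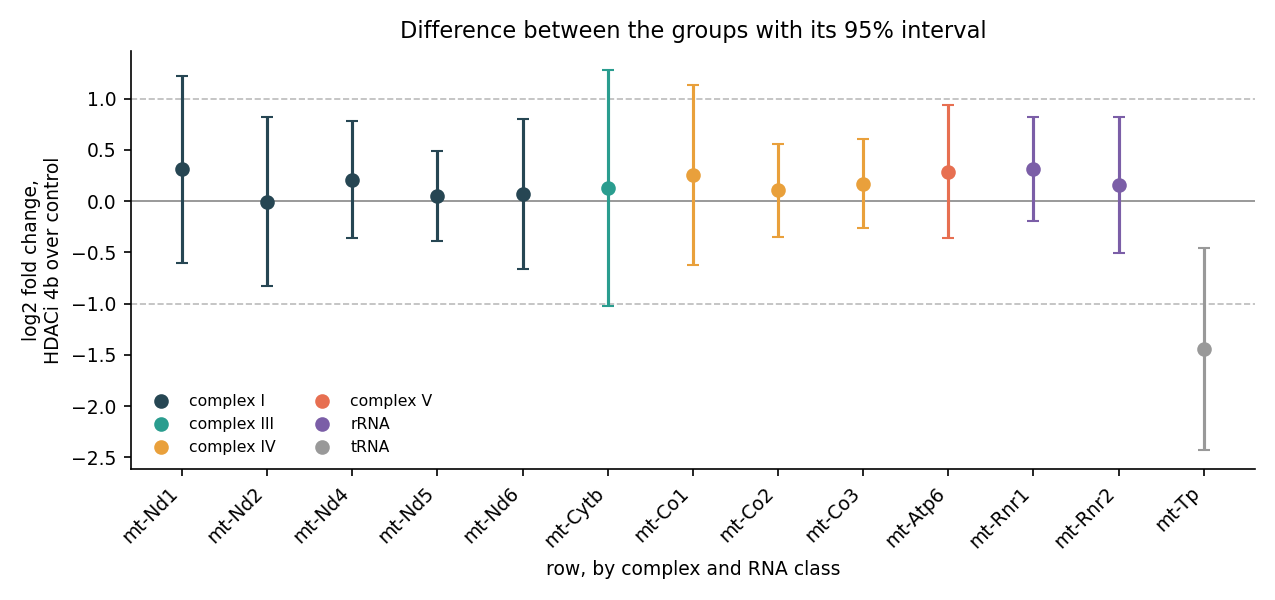
Log2 fold change (HDACi 4b over control) of the 13 tested rows, coloured by complex and RNA class, with 95% intervals from limma (n = 2 libraries per group). The solid line is no change and the dashed lines are 2-fold. Every interval but that of mt-Tp, a row of 1 to 6 reads per library, crosses the line of no change.

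Levels were also summed by complex. Complex I summed to 2148 and 1736 RPKM in control oocytes and 1858 and 2289 RPKM with HDACi 4b. Complex IV summed to 2305 and 2187 RPKM in control oocytes and 2395 and 2689 RPKM with HDACi 4b, and complex V to 397 and 375 RPKM in control oocytes and 424 and 474 RPKM with HDACi 4b. The rRNAs summed to 755 and 895 RPKM in control oocytes and 837 and 964 RPKM with HDACi 4b. Treated libraries were above both controls for complexes IV and V as deposited, though not after scaling, and overlapped with them for complex I and the rRNAs. Complex I made up 17.9% and 15.1% of the mitochondrial mRNA level in the controls and 16.7% and 16.2% with HDACi 4b, with overlap. Complex V made up 3.30% and 3.27% in the controls and 3.80% and 3.36% with HDACi 4b, so both treated libraries were above both controls. The complex V share rests on mt-Atp6, whose level is uncertain because of its near-identical copy.

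Libraries of the same group also differed from each other. Among the 12 rows with at least 50 reads in each library, HDACi 4b replicate 2 was the highest library for 11 rows after scaling, mt-Co3 being the other, and for 9 rows as deposited. Control replicate 2 was the lowest library for 8 of the 12 after scaling, and for 4 as deposited. As deposited, control replicate 1 was the lowest for 5 rows and HDACi 4b replicate 1 for 3. Relative to the mean of all 4 libraries, the median deviation was 0.08 and -0.24 in the controls and -0.05 and 0.29 with HDACi 4b (log2, scaled values). Over all tested genes these medians were 0.02, -0.01, -0.03 and 0.03. The gap between the 2 treated libraries exceeded the difference between group means for 11 of the 12 rows, against 62.5% of all tested genes, and that between the controls for 7, against 68% of all tested genes. A gap between single libraries is larger than a difference between means even where nothing changes, so these counts are a description only. The median sizes were 0.16 for the group difference, 0.38 for the control gap and 0.33 for the treated gap, against 0.14, 0.26 and 0.22 over all tested genes. The scaling factors were 0.911 and 1.15 for the controls and 1.03 and 0.925 for the treated libraries, and their part in this spread was not tested beyond the scalings in the closing section. Without HDACi 4b replicate 2 the log2 fold change was positive for 6 of the 13 rows, and without control replicate 2 for 7.

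**Figure D4:**
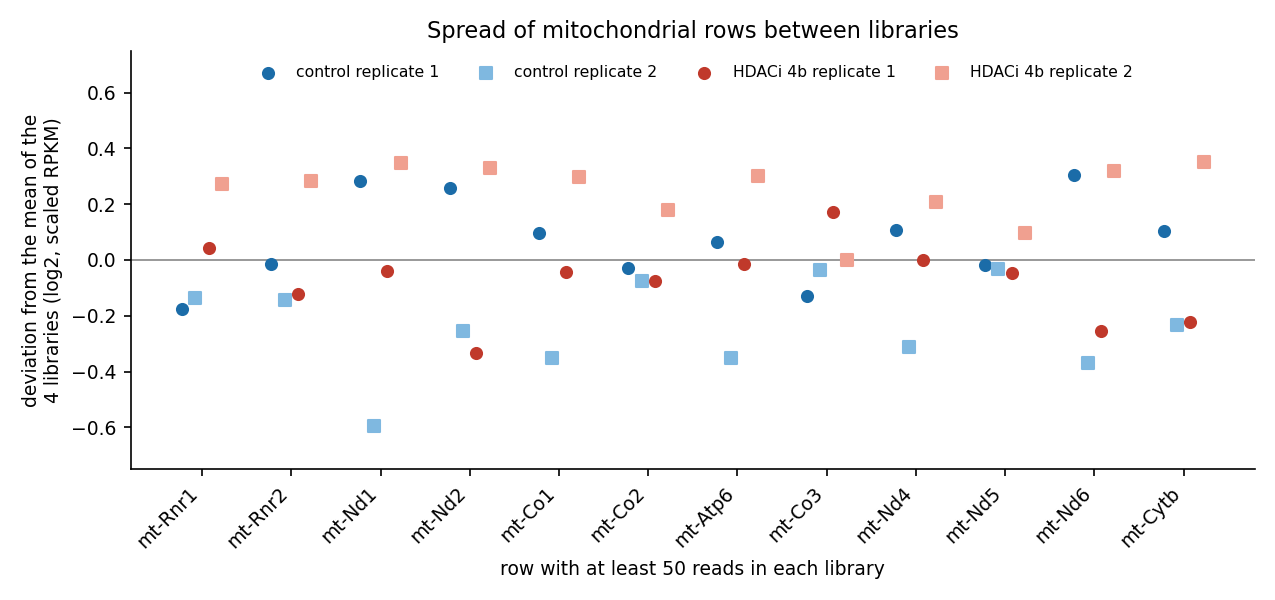
Deviation of each library from the mean of the 4 libraries (log2 of scaled RPKM + 0.1) for the 12 mitochondrial rows with at least 50 reads in each library. Symbols are single libraries. HDACi 4b replicate 2 is the highest library for 11 rows and control replicate 2 the lowest for 8.

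The nuclear genes that serve the mitochondrial genome were read from the same fit. For this list and those below, the background over all 9461 tested genes was 0% called and 49.7% positive, with a median of -0.00. Of 10 tested genes for transcription of mitochondrial DNA, 0 were called and 6 had a positive log2 fold change, with a median of 0.02. Tfb1m, an rRNA methyltransferase of the transcription factor B family, was at 24.3 and 25.6 RPKM in control oocytes and 27.9 and 22.6 RPKM with HDACi 4b. Mterf4, which acts in assembly of the mitochondrial ribosome, was at 23.0 and 25.5 RPKM in control oocytes and 26.1 and 20.6 RPKM with HDACi 4b. Mterf1b, a paralog of the termination factor gene Mterf1a, had the smallest p of this list, with a log2 fold change of -0.16 ± 0.16. The levels overlapped for Tfb1m and Mterf4.

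Of 9 tested genes for replication and upkeep of mitochondrial DNA, 0 were called and 5 were positive (median 0.00). Rrm2b, a ribonucleotide reductase subunit, had the highest level (a mean of 33.4 RPKM over the 4 libraries), followed by Dguok, a deoxyguanosine kinase (9.03 RPKM). Slc25a4, the ADP/ATP carrier of the inner membrane, was at 7.93 and 11.2 RPKM in control oocytes and 6.59 and 6.24 RPKM with HDACi 4b. Its log2 fold change was -0.48 ± 0.17 (unadjusted p = 0.0247, adjusted p = 1.0 by limma), and it was lower in both treated libraries than in both controls.

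Of 17 tested genes for processing, stability and decay of mitochondrial RNA, 0 were called and 14 were positive, against 0% and 49.7% of all tested genes. The median was 0.11, against -0.00 for all tested genes. Mtpap, the mitochondrial poly(A) polymerase, was at 34.9 and 31.1 RPKM in control oocytes and 47.4 and 33.8 RPKM with HDACi 4b, where only HDACi 4b replicate 1 stood above the controls. Angel2, a phosphatase of RNA ends, had the highest level (a mean of 44.4 RPKM) and a log2 fold change of 0.08 ± 0.21. Of 11 tested genes for modification of mitochondrial tRNA and rRNA, 0 were called and 8 were positive (median 0.12). Trmt5, a tRNA methyltransferase, was at 30.5 and 27.9 RPKM in control oocytes and 42.5 and 29.99 RPKM with HDACi 4b, the same pattern as in Mtpap. Trnt1, which adds the CCA end to tRNAs, was at a mean of 30.6 RPKM with a log2 fold change of 0.17 ± 0.17. HDACi 4b replicate 1 was thus the highest library for Mtpap and Trmt5, whereas among the 12 mitochondrial rows with at least 50 reads in each library it was the highest for mt-Co3 only.

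Of 10 tested translation factors of mitochondria, 0 were called and 4 were positive (median -0.06). Mtrf1, a release factor, was the highest at a mean of 23.0 RPKM with a log2 fold change of 0.12 ± 0.17. Gfm1, an elongation factor, was at 0.08 ± 0.18, and Taco1, a translational activator of mt-Co1, at -0.27 ± 0.17, neither past the threshold.

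The nuclear subunits of the same complexes gave 0 calls as well. For complex I, 2 of 7 tested core subunits had a positive log2 fold change (median -0.01), for complex III 6 of 9 (median 0.01), for complex IV 7 of 10 (median 0.09) and for complex V 6 of 14 (median -0.05). By mean level over the 4 libraries, the highest nuclear subunit in each list was below the highest mitochondrial mRNA of the same enzyme. Cox6a1 was the highest nuclear subunit of complex IV, at 256 and 236 RPKM in control oocytes and 220 and 199.96 RPKM with HDACi 4b, and Cox7a2 had 203 and 202 RPKM in control oocytes and 207 and 251 RPKM with HDACi 4b. Uqcrq of complex III was at a mean of 95.7 RPKM, against 7356 RPKM for mt-Cytb. In complex I, Ndufs3 was at a mean of 80.7 RPKM, below mt-Nd1, mt-Nd2, mt-Nd4, mt-Nd5 and mt-Nd6. In complex V, Atp5e was at 229 and 696 RPKM in control oocytes and 348 and 243 RPKM with HDACi 4b, so that control replicate 2 alone stood far above the rest, and Atp5h at 295 and 316 RPKM in control oocytes and 325 and 353 RPKM with HDACi 4b. For the 4 enzymes, no tested mRNA of a listed subunit, mitochondrial or nuclear, differed between the groups at the adjusted threshold. The same held for all 9461 tested genes. Of the listed subunits, mt-Nd3, mt-Nd4l, mt-Atp8 and Atp5d were not tested, and proteins were not measured here.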

How the data were processed

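RNA of denuded mouse oocytes was sequenced in 2 control and 2 HDACi 4b libraries, grouped by the labels. The authors deposited 1 table of RPKM values of 26631 rows and 4 value columns, with 0 columns unused. Bowtie 0.12.2 and the build mm8 are named in the submitters' processing notes. For the counting, neither a tool nor a strand setting nor a treatment of reads with several matches was found: not given in the sources used here.

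Coordinates, gene lengths and sequences come from GENCODE M21 on GRCm38. Whole reads were recovered from the RPKM values with a tolerance of 0.01 reads, for 85.1% of rows at the GENCODE length and for the other 3964 rows from ratios between libraries. They summed to 99.8% of the library totals. Limits from 0 counts use 3 reads, which is 0.201 to 0.223 CPM.

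Libraries were scaled by TMM (30% of ratios and 5% of levels trimmed) on the recovered reads. Rows with a mean of at least 1 RPKM were tested with limma 3.58.1 in R 4.3.3 on log2(RPKM + 0.1), with an intensity trend, no covariate, two-sided, and Benjamini-Hochberg adjustment at 0.05 over all 9461 rows. Each fold change is on this log2(RPKM + 0.1) scale, which understates changes of low genes. Levels in RPKM are as deposited. The code was tested on simulated data. Nuclear copies were found with blastn 2.17.0 against the GENCODE transcripts (at least 200 bases and 85% identity).

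Members and gene lists were chosen with earlier results of these data known. Named are the mitochondrial rows, their copies and, of each nuclear list, the 2 tested genes with the highest mean RPKM and the one with the smallest p, of which the text gives those that carry a comparison. Alternatives were other scalings, pseudocounts and filters, robust estimation, a block for the replicate number, limma-voom on the recovered reads and the omission of each library.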

Additional observations from a re-analysis of the deposited data

How the results depend on the processing

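With limma, 0 mitochondrial rows were called under every setting run. Over all genes, 0 were called except without HDACi 4b replicate 2, which gave 1 higher and 4 lower genes, 5 in all (Ighd2-7 higher, and Krt18, Calcoco2, Gm22107 and Gm24975 lower, named after their values were seen), so the range over left-out libraries was 0 to 5. Of the values for single rows, 184 kept their direction and 15 turned it. mt-Nd2 was at 0.0083 with median ratio scaling and at 0.052 with upper quartile scaling, and without scaling mt-Nd5 was at -0.020 and mt-Nd6 at -0.0031. The number of positive rows was 9 without scaling and 12 with median ratio or upper quartile scaling, and 11 with TMM on the rows other than mitochondrial ones.

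Leaving out each library in turn gave log2 fold changes of -0.044 to 0.36 for mt-Rnr2, -0.13 to 0.75 for mt-Nd1, -0.34 to 0.33 for mt-Nd2, -0.022 to 0.23 for mt-Co2 and -0.0022 to 0.42 for mt-Nd4. The ranges were -0.022 to 0.12 for mt-Nd5, -0.27 to 0.40 for mt-Nd6 and -0.16 to 0.42 for mt-Cytb. The lowest values came without control replicate 2 for mt-Nd1, mt-Nd4 and mt-Nd6 and without HDACi 4b replicate 2 for the others. The other 5 rows kept their direction, with 0.20 to 0.43 for mt-Rnr1, 0.031 to 0.48 for mt-Co1, 0.082 to 0.25 for mt-Co3, 0.078 to 0.50 for mt-Atp6 and -2.08 to -0.81 for mt-Tp. The share of mitochondrial rows in the library differed by 0.11 (log2) between the groups, with -0.062 to 0.26 when a library was left out, and that of complex III by 0.08, with -0.15 to 0.27. Both lowest values came without HDACi 4b replicate 2. The cause of these shifts was not tested.

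Between libraries of the same replicate number, the correlation of deviations from the group mean over genes was 0.045. With 2 libraries per group both pairs give the same value, so it cannot show whether the libraries were paired. With the replicate number as a block, 0 mitochondrial rows and 0 genes in all were called, while at an unadjusted p under 0.05 there were 165 genes higher and 167 lower. Summing each row with its near-identical copy, an alternative chosen after seeing the data, gave 15 tested rows and 0 calls, and its log2 fold changes were 0.14 for mt-Atp6 and 0.04 for mt-Co2. mt-Nd3, mt-Nd4l, mt-Atp8 and both tRNAs had under 10 reads in every library, which limits the precision of their values, and the cause of these low counts was not tested. The 2 libraries per group limit all rows.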
